A study of Mus musculus with 12 samples.

Results

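The 10 genes described here, Acly, Acaca, Fasn, Me1, Elovl6, Elovl5, Scd1, Scd2, Fads1 and Fads2, encode enzymes that build fatty acids from acetyl units and then lengthen and desaturate them. They were chosen by name as a pathway, not by their values. All 10 were found among the 47643 gene rows of the table, and all 10 were among the 17602 genes that passed the filter on low counts. RNA of mouse intestine was measured in 12 libraries that form 4 groups of 3: PparaΔIE mice on a high-fat diet (KO HFD), Pparafl/fl mice on a high-fat diet (WT HFD), PparaΔIE mice on chow (KO chow) and Pparafl/fl mice on chow (WT chow). All animals were male C57BL/6 mice aged 7 to 8 weeks, and each diet, chow or an HFD given as 60%, was fed for 10 days. The control mice carry the floxed Ppara allele too, so the comparison is of a deleted with a floxed allele. KO here means loss of Ppara in the intestinal epithelium (ΔIE), and the libraries also held markers of other cells, such as smooth muscle and T cells. The labels name no recombinase line, no deleted exons and no segment of the intestine, and they do not say whether each library is 1 mouse, so every p-value below rests on spread among libraries that may be technical.

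De novo lipogenesis starts when ATP citrate lyase, the product of Acly, splits cytosolic citrate into acetyl-CoA. Acetyl-CoA carboxylase (Acaca) turns this into malonyl-CoA, and fatty acid synthase (Fasn) joins the units into palmitate with NADPH, part of which comes from malic enzyme (Me1). Elovl6 lengthens palmitate, the stearoyl-CoA desaturases Scd1 and Scd2 place the first double bond to make monounsaturated acids, and Fads2, Elovl5 and Fads1 act in turn on dietary linoleic and alpha-linolenic acid to make long polyunsaturated acids. In liver, insulin, carbohydrate and the transcription factors SREBP-1c, ChREBP and LXR raise these genes, polyunsaturated fat lowers them, and several of them also respond to PPARα, the fatty-acid receptor that Ppara encodes.

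Promoter sequences are given for Acly, Fasn and Elovl5, which differ between diets in WT libraries below: Acly and Fasn in 1 direction and Elovl5 in the other. Each is the 250 bases before the RefSeq start of the gene (build GRCm38.p6), written 5′ to 3′ on the gene's strand. Capitals mark matches, on either strand, to the GC box GGGCGG, the CCAAT box CCAAT and the E-box CACGTG. The Acly window is chr11:100528001-100528250 on the minus strand, the Fasn window is chr11:120824548-120824797 on the minus strand, and the Elovl5 window is chr9:77917115-77917364 on the plus strand.
Acly: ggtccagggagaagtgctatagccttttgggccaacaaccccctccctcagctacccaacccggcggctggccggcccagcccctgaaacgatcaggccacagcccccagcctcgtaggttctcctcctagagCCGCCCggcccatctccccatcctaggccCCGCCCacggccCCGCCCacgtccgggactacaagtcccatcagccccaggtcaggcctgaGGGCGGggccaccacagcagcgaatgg
Fasn: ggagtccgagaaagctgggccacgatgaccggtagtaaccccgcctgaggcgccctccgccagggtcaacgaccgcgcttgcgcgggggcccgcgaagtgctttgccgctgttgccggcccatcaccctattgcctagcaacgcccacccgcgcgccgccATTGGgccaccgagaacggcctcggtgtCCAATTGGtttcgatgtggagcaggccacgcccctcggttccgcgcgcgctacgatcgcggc
Elovl5: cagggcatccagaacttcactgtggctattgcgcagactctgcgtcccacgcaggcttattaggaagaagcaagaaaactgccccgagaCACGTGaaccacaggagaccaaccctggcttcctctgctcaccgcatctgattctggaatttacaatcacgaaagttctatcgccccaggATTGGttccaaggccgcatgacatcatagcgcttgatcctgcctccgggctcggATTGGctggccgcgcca
The Acly window held 4 GC boxes, the Fasn window 3 CCAAT boxes of which 2 share bases, and the Elovl5 window 2 CCAAT boxes and 1 E-box. The E-box lay 161 to 156 bases before the Elovl5 start. Of 32851 such windows over the genome, 32.7% held a GC box, 33.8% a CCAAT box and 6.02% an E-box. The RefSeq table had entries for 7 of the 10 genes (Acly, Acaca, Fasn, Elovl5, Elovl6, Me1 and Fads2). Not all of these windows are upstream sequence: the Acaca window lay wholly inside the annotated gene, as did a second one of Me1, and 243 of the 250 bases of the Fads2 window did. The sterol response element searched as TCACNCCAC, which 1.05% of all windows held, was not found in the windows of these 7 genes. The same held for the nuclear receptor repeats DR1, which 0.338% of windows held, and DR4, which 0.0152% held. A match or its absence in these letters is only a description of the window.

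Total expected counts ran between 33621040 and 53959405 per library, and levels are given as CPM, each library's counts scaled to the same total after TMM correction. Ppara itself had 11.4, 11.1 and 17.3 CPM in KO HFD libraries, against 39.3, 36.6 and 33.7 CPM in WT HFD libraries. It had 8.42, 15.6 and 13.0 CPM in KO chow libraries, against 19.2, 18.1 and 22.0 CPM in WT chow libraries. The groups did not overlap on either diet, and edgeR's quasi-likelihood test called it on HFD, at -1.46 on the log2 scale (SE 0.21, adjusted p = 0.031), and not on chow, at -0.68 (SE 0.21, adjusted p = 0.25). The call on HFD was lost in 12 of 23 alternative fits, 8 of which left out 1 library (KO HFD 1 or 2, WT HFD 1 or 2, KO chow 3 or any WT chow library), with adjusted p up to 0.14. Enterocyte markers summed to 31215 to 41329 CPM in KO HFD, 36638 to 42960 CPM in WT HFD, 28501 to 29978 CPM in KO chow and 28244 to 29190 CPM in WT chow, and all 13 passed 1 CPM in some library.

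Libraries also differed in ways other than genotype and diet. A score of proximal small-intestine markers (mean centred log2 level of Lct, Gata4, Onecut2, Slc40a1, Cybrd1 and Fabp1) was -0.118, 0.798 and 0.478 in KO HFD and 1.209, 1.086 and 0.258 in WT HFD. It was -1.002, 0.141 and 0.011 in KO chow and -0.997, -0.893 and -0.97 in WT chow, so WT HFD and WT chow did not overlap. Its 6 markers did not move as 1: for diet, 4 had a positive log2 fold change and 2 a negative one in each genotype. Onecut2 was under 1 CPM in every library. A smooth muscle score was 0.713, 0.392 and 0.399 in KO HFD, against 0.12, -0.556 and -0.736 in WT HFD, and its 10 markers summed to 93.2 to 120 CPM in KO HFD and 36.6 to 72.8 CPM in WT HFD. On chow the smooth muscle markers summed to 50.9 to 65.9 CPM in KO and 66.3 to 68.8 CPM in WT. The smooth muscle score was 0.011, -0.396 and -0.142 in KO chow and 0.13, 0.007 and 0.057 in WT chow. KO HFD and KO chow thus did not overlap in it. For diet, 10 of 10 of these markers had a positive log2 fold change in KO (median 0.87, 3 called higher). In WT, 9 of 10 were negative (median -0.38, 0 called). The third KO chow library lay between the other 2 for 58.4% of tested genes and for 6 of the 10 enzyme genes, where the other 11 libraries did so for 19.9% to 41.8% of genes. The spread within WT chow was narrow, with a biological coefficient of variation of 0.0583 against 0.14 to 0.152 in the other groups. In bulk tissue, fewer cells of a type and less RNA per cell cannot be told apart.

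Scd2, a stearoyl-CoA desaturase, was by far the most abundant of the 10 genes. Divided by merged exon length, its level was 102 ± 9.83 CPM per kb in KO HFD, 121 ± 14.3 in WT HFD, 88.0 ± 7.37 in KO chow and 119 ± 0.711 in WT chow (SD, n = 3 each). It made up 43.3% to 53.5% of the summed CPM of the 10 genes in every library. Scd1, the main desaturase of liver, was 9.51 to 19.5 times lower than Scd2 per kb. RSEM divides reads between genes of similar sequence, so the split between these paralogs is uncertain.

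**Figure D1:**
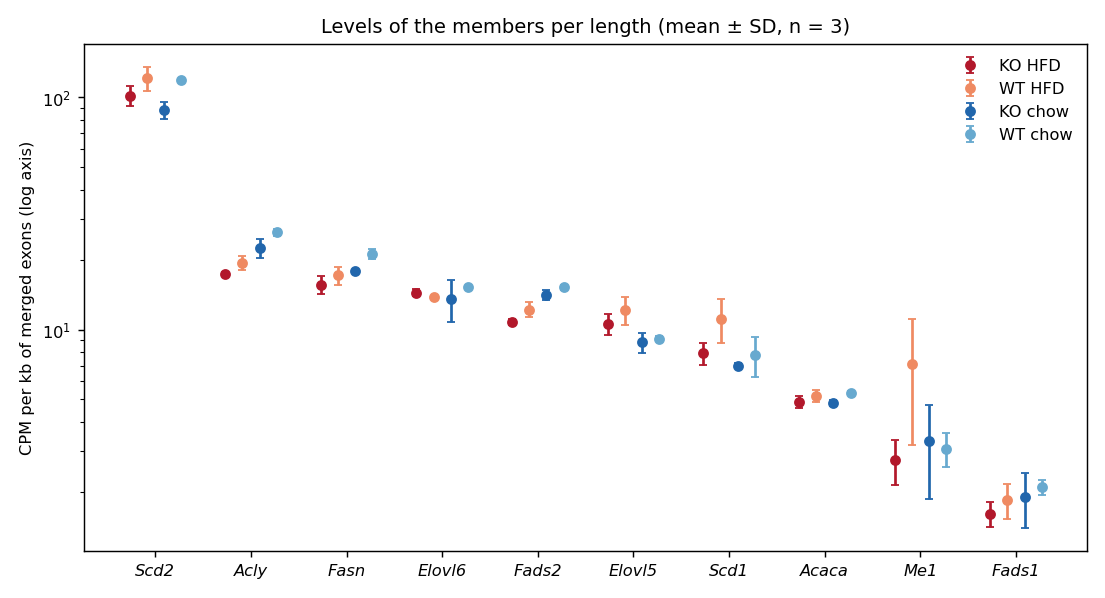
Levels of the 10 genes per kb of merged exon (CPM per kb, log axis) in the 4 groups, with dots for group means and bars for ± SD (n = 3). The mean of Scd2 stands above that of every other gene in all 4 groups, and Fads1 has the lowest mean in each group.

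Below Scd2, the order by level per length was Acly and then Fasn in every group. In WT chow, Acly was at 26.2 ± 0.818 CPM per kb, Fasn at 21.1 ± 1.04, Elovl6 at 15.3 ± 0.172, Fads2 at 15.2 ± 0.411, Elovl5 at 9.14 ± 0.256 and Scd1 at 7.75 ± 1.5 (SD, n = 3 each). Acaca followed at 5.33 ± 0.0827, Me1 at 3.07 ± 0.509 and Fads1 at 2.10 ± 0.155 CPM per kb. Merged exon length counts every annotated exon, used here or not (17074 bases for Acaca), so the order of the genes depends on it. The neighbours Elovl6 and Fads2, and Elovl5 and Scd1, overlapped in their libraries, and all other neighbours did not. In KO chow, Fads2 and Elovl6 overlapped below Fasn, and so did Acaca with Me1 and Me1 with Fads1. In WT HFD, the genes Fads2, Elovl5, Scd1 and Me1 stood between 12.2 and 7.13 CPM per kb with each overlapping the next, and Me1 also overlapped Acaca. In KO HFD the overlapping neighbours were Fasn with Elovl6 and Fads2 with Elovl5. The 10 genes together summed to 1067 to 1182 CPM in KO HFD, 1188 to 1395 CPM in WT HFD, 1023 to 1177 CPM in KO chow and 1341 to 1360 CPM in WT chow.

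**Figure D2:**
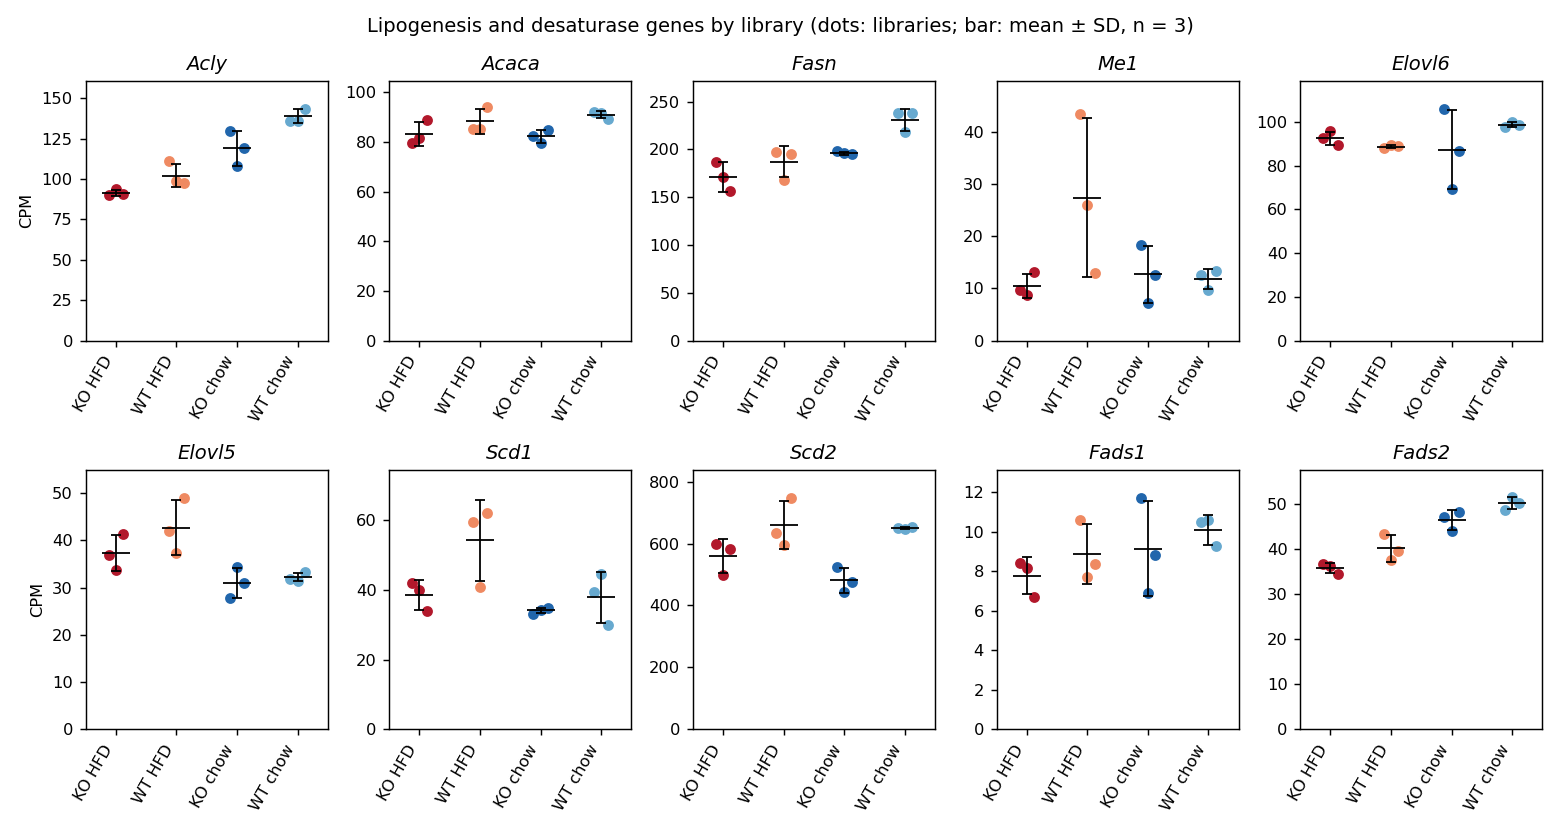
CPM of each gene in every library (dots) with the mean ± SD (n = 3), one panel per gene, axes starting at 0. Acly and Fads2 are lower on HFD than on chow within each genotype, Elovl5 is higher on HFD in WT libraries, and Me1 spreads widest in WT HFD, between 13.0 and 43.4 CPM.

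On HFD, Acly, Fasn and Fads2 were lower and Elovl5 was higher than on chow in WT mice. These 4 of the 10 genes passed edgeR's quasi-likelihood test at an adjusted p under 0.05, where 13.4% of all tested genes did (6.57% lower and 6.8% higher). In KO mice, Acly and Fads2 were lower on HFD and 0 of the 10 genes were called higher, where 8.2% of all tested genes were called (4.76% lower and 3.44% higher). The median log2 fold change of the 10 genes was -0.09 in KO and -0.10 in WT, where that of all genes was 0.01 in both. DESeq2 called 2 of the 10 in KO, where it called 14.4% of genes, and 5 in WT, where it called 16.4%. At an unadjusted p under 0.05 in edgeR there were 5 in KO and 6 in WT, where 25.2% of all tested genes were in KO and 29.4% in WT. The 2 diet comparisons use different libraries.

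Acly, the entry enzyme, had 90.2, 93.6 and 90.6 CPM in KO HFD libraries, against 130, 108 and 119 CPM in KO chow libraries. In the other genotype it had 111, 98.6 and 97.6 CPM in WT HFD libraries, against 136, 136 and 143 CPM in WT chow libraries. Every HFD library was below every chow library of its genotype. The log2 fold change was -0.38 in KO (SE 0.08, adjusted p = 0.011) and -0.44 in WT (SE 0.08, adjusted p = 0.0035), by edgeR.

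Fasn, the synthase, had 187, 171 and 156 CPM in KO HFD libraries, against 198, 196 and 195 CPM in KO chow libraries. It had 197, 168 and 195 CPM in WT HFD libraries, against 238, 218 and 238 CPM in WT chow libraries. The diets did not overlap in either genotype, as for 13.1% of tested genes that were lower on HFD in KO and 18.6% in WT. The log2 fold change of -0.20 in KO was not called (SE 0.08, adjusted p = 0.16), and that of -0.31 in WT was (SE 0.08, adjusted p = 0.027, edgeR). The difference between those diet effects was 0.11 (SE 0.12, adjusted p = 0.95), so a difference between genotypes was not shown. Without WT HFD 2, WT HFD 3, WT chow 1 or WT chow 3 the WT call was lost, with log2 fold changes of -0.25, -0.34, -0.30 and -0.29 and adjusted p between 0.051 and 0.11.

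Acaca, which makes malonyl-CoA between those steps, stayed within a narrow band. It had 79.6, 81.6 and 88.7 CPM in KO HFD, against 82.4, 79.7 and 84.8 CPM in KO chow. It had 85.1, 85.3 and 94.2 CPM in WT HFD, against 92.0, 91.7 and 89.4 CPM in WT chow. The diets overlapped in both genotypes, and the 95% intervals of the log2 fold change ran between -0.13 and 0.16 in KO and between -0.19 and 0.10 in WT. Gm11437 overlaps Acaca on the opposite strand at a mean of 17.9 CPM, and the strand setting of the counting is not given in the sources used here.

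Me1, the malic enzyme that yields NADPH, had the widest spread of the 10 genes. It had 9.61, 8.83 and 13.2 CPM in KO HFD libraries, against 18.3, 7.27 and 12.5 CPM in KO chow libraries. It had 43.4, 25.9 and 13.0 CPM in WT HFD libraries, against 12.5, 9.62 and 13.4 CPM in WT chow libraries. The first WT HFD library was the highest of all 12, the second was next, and the third was among the chow libraries. The log2 fold changes of -0.27 in KO (SE 0.46, adjusted p = 0.77) and 1.21 in WT (SE 0.45, adjusted p = 0.11) did not pass edgeR's test. Without WT HFD 1 the WT value was 0.70 (adjusted p = 0.30), without WT HFD 3 it was 1.55 (adjusted p = 0.043), and with the smooth muscle score as a covariate it was 1.85 (SE 0.33, adjusted p = 0.021). With the same covariate the KO value was -1.33 (SE 0.41, adjusted p = 0.063).

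Of the elongases, Elovl5 was called for diet in WT and Elovl6 was not. Elovl5, which lengthens polyunsaturated acids, had 37.0, 33.7 and 41.3 CPM in KO HFD libraries, against 27.9, 34.3 and 30.9 CPM in KO chow libraries. It had 41.9, 37.3 and 48.9 CPM in WT HFD libraries, against 31.9, 31.5 and 33.2 CPM in WT chow libraries. KO libraries overlapped by 1 library each, and WT libraries did not overlap between diets (19.3% of tested genes stood apart and higher on HFD in WT). The log2 fold change of 0.27 in KO was not called (SE 0.10, adjusted p = 0.13) and that of 0.41 in WT was (SE 0.10, adjusted p = 0.02, edgeR), with a difference of -0.14 between them (SE 0.15, adjusted p = 0.95). The WT call was lost without WT HFD 3 (0.30, adjusted p = 0.097) and without any single WT chow library (0.38 to 0.43, adjusted p between 0.06 and 0.081).

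Elovl6, which lengthens palmitate, did not pass the test in either genotype. It had 92.4, 95.6 and 89.3 CPM in KO HFD, against 106, 69.3 and 86.7 CPM in KO chow (0.08 on the log2 scale, SE 0.11, adjusted p = 0.68). It had 88.0, 89.2 and 89.0 CPM in WT HFD, against 97.6, 99.8 and 98.4 CPM in WT chow, groups that did not overlap (-0.15, SE 0.11, adjusted p = 0.38). KO chow held both the highest and the lowest of its 12 libraries.

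Among the desaturases, Fads2, which takes the first step on linoleic acid, differed between diets in both genotypes. It had 36.6, 36.1 and 34.5 CPM in KO HFD libraries, against 47.1, 44.0 and 48.2 CPM in KO chow libraries. It had 43.3, 37.5 and 39.5 CPM in WT HFD libraries, against 48.7, 51.4 and 50.2 CPM in WT chow libraries. Every HFD library was below every chow library of both genotypes. The log2 fold change was -0.38 in KO (SE 0.07, adjusted p = 0.0069) and -0.32 in WT (SE 0.07, adjusted p = 0.0096), by edgeR.

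Fads1, the desaturase that acts after Elovl5 on the same acids, was the least abundant of the 10. It had 8.42, 8.19 and 6.70 CPM in KO HFD, against 11.7, 6.90 and 8.85 CPM in KO chow, and 10.6, 7.69 and 8.37 CPM in WT HFD, against 10.5, 10.6 and 9.26 CPM in WT chow. The diets overlapped in both genotypes. The log2 fold changes of -0.24 in KO (adjusted p = 0.43) and -0.19 in WT (adjusted p = 0.51) had an SE of 0.17 each and were not called by edgeR. With the smooth muscle score as a covariate, Fads1 was called lower on HFD in KO (-0.68, adjusted p = 0.031).

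Scd1 had 42.0, 40.0 and 33.8 CPM in KO HFD libraries, against 33.2, 34.1 and 34.9 CPM in KO chow libraries. It had 59.6, 40.7 and 62.1 CPM in WT HFD libraries, against 39.3, 44.5 and 30.0 CPM in WT chow libraries. WT HFD 1 and WT HFD 3 were above all others and WT HFD 2 was among the chow libraries. The KO value of 0.18 on the log2 scale (SE 0.17, adjusted p = 0.54) was not called, and the WT value of 0.52 (SE 0.16, adjusted p = 0.057) missed the threshold. The WT value passed in 5 of 23 alternative fits, among them those without WT HFD 2 (0.67, adjusted p = 0.012) and without WT chow 2 (0.63, adjusted p = 0.05).

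Scd2 had 600, 499 and 581 CPM in KO HFD, against 523, 443 and 475 CPM in KO chow, at 0.22 on the log2 scale (SE 0.10, adjusted p = 0.19, edgeR). It had 633, 597 and 747 CPM in WT HFD, against 651, 647 and 655 CPM in WT chow, at 0.02 (SE 0.10, 95% interval -0.20 to 0.23). The diets overlapped in both genotypes.

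**Figure D3:**
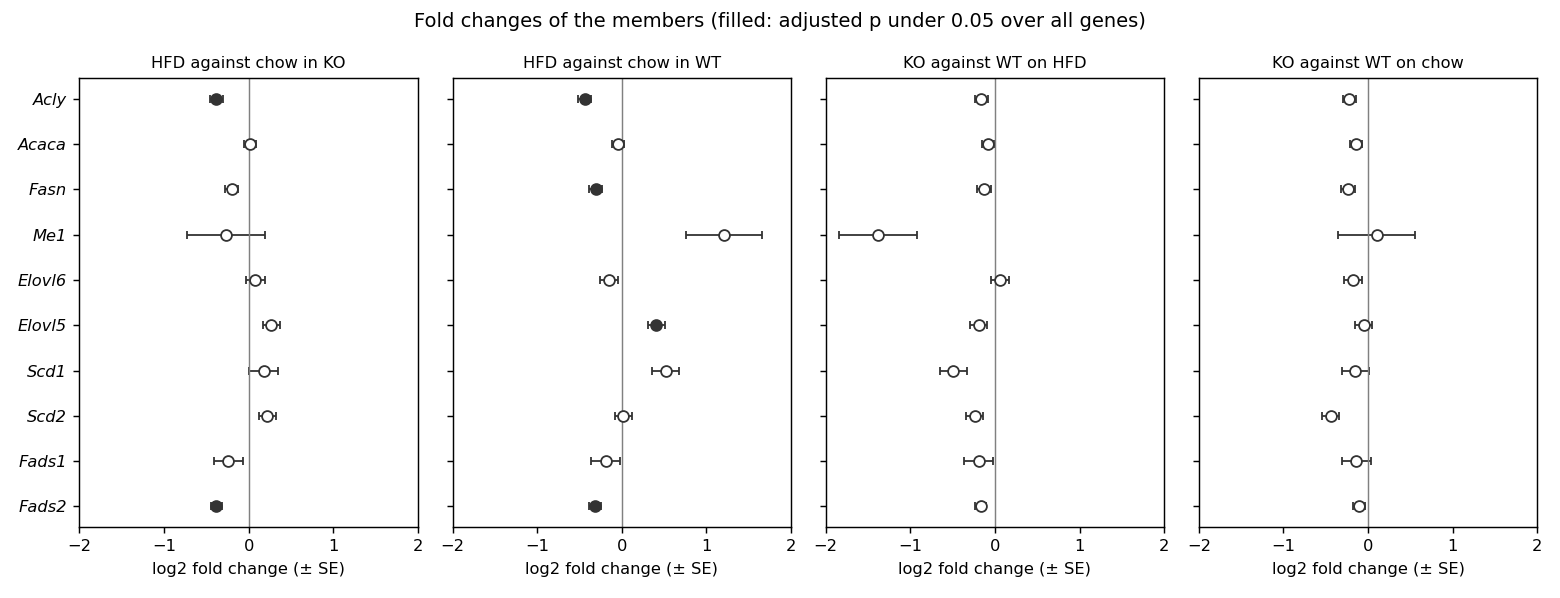
Log2 fold change ± SE of each gene in 4 comparisons from 1 edgeR fit, with filled points where the adjusted p over all genes is under 0.05. Filled points are Acly and Fads2 for diet in KO, and Acly, Fasn, Elovl5 and Fads2 for diet in WT, and no point is filled for genotype on either diet.

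The diet comparison moved together with the proximal marker score, which was higher in all 3 WT HFD libraries than in all 3 WT chow libraries. With that score as a covariate, 0 of the 10 genes were called for diet in WT (edgeR), where the count over all tested genes fell to 0 as well, against 2353 without it. The WT fold changes were then -0.37 for Acly (SE 0.16), -0.31 for Fads2 (SE 0.14), -0.16 for Fasn (SE 0.16) and 0.46 for Elovl5 (SE 0.21), with adjusted p between 0.58 and 0.89. Scd2, at 0.02 without the covariate, was at 0.44 with it (SE 0.15, adjusted p = 0.45) and at 0.27 with the score without Fabp1 (SE 0.12, adjusted p = 0.36). In KO, where the full score overlapped between diets, Fads2 was called with the covariate (-0.37, SE 0.09, adjusted p = 0.041) and Acly was not (-0.35, SE 0.10, adjusted p = 0.075). The score without Fabp1 gave 65 calls over all tested genes for diet in WT, and 0 among the 10. Acly was then at -0.36 in WT (SE 0.11, adjusted p = 0.19). In KO, Acly (-0.34, adjusted p = 0.04) and Fads2 (-0.37, adjusted p = 0.018) were both called with the score without Fabp1. With the smooth muscle score instead, Acly was called in both genotypes, and Fads2 was called in KO and not in WT (-0.24, adjusted p = 0.071). The WT calls of Fasn (-0.23, adjusted p = 0.16) and Elovl5 (0.31, adjusted p = 0.14) were lost with it too, and Me1 was called higher in WT. In KO the smooth muscle score did not overlap between diets, so its part and that of diet cannot be told apart there. Without the WT chow 1 and KO chow 3 libraries together, Acly alone was called in WT and 0 genes in KO, where Acly (-0.39) and Fads2 (-0.37) had adjusted p of 0.083 and 0.069. With only the KO libraries in the fit, the KO call of Acly was lost too (-0.38, SE 0.09, adjusted p = 0.066).

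Between KO and WT, edgeR called 0 of the 10 genes on HFD and 0 on chow. Among all tested genes, it called 0.29% on HFD (0.102% higher and 0.187% lower) and 0.125% on chow (0.0795% higher and 0.0454% lower). At an unadjusted p under 0.05 there were 4 on HFD (Fads2, Me1, Scd1 and Scd2) and 3 on chow (Acly, Fasn and Scd2), where 13.0% of all tested genes were on each diet. DESeq2 called 0 on HFD, where it called 2.0% of genes, and 1, Scd2, on chow, where it called 1.28%. Of the 10 genes, 9 had a negative log2 fold change on each diet, with medians of -0.18 on HFD and -0.15 on chow, where the medians of all genes were 0.00. The genotype and diet comparisons share libraries, so their values are not independent.

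On HFD, the widest genotype differences were those of Me1 and Scd1. The KO libraries of Me1 (9.61, 8.83 and 13.2 CPM) overlapped the WT libraries (43.4, 25.9 and 13.0 CPM) through the third of each, and differed by -1.38 on the log2 scale (SE 0.46, adjusted p = 0.27). Without WT HFD 1 the value was -0.89 (adjusted p = 0.51), and without WT HFD 3 it was -1.72 (adjusted p = 0.10). Smooth muscle markers were higher in these KO libraries than in these WT libraries, and with their score as a covariate the Me1 value was -2.74 (SE 0.46, adjusted p = 0.012). That covariate also brought Acly (-0.37, adjusted p = 0.047) and Fads1 (-0.78, adjusted p = 0.049) under the threshold on HFD, while the count over all genes became 1541, against 51 without it. Scd1 was at 42.0, 40.0 and 33.8 CPM in KO HFD, against 59.6, 40.7 and 62.1 CPM in WT HFD (-0.49, SE 0.16, adjusted p = 0.25). Libraries did not overlap and were lower in KO for Acly and Fads2, where this held for 8.7% of tested genes, and were higher in KO for Elovl6, where it held for 9.27%.

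On chow, libraries of KO were below those of WT without overlap for Acly, Acaca, Fasn, Scd2 and Fads2, where 12.1% of tested genes stood apart and lower and 10.0% higher. Scd2 was at 523, 443 and 475 CPM in KO chow, against 651, 647 and 655 CPM in WT chow, -0.44 on the log2 scale (SE 0.10, adjusted p = 0.14, edgeR). It was called without KO chow 1, without the filter on low counts and by DESeq2, fits that called 517, 49 and 183 genes in all, against 22 with all libraries and the filter. The value was -0.28 (SE 0.09, adjusted p = 0.49) with the proximal score as a covariate, and that score was -1.002, 0.141 and 0.011 in KO chow and between -0.997 and -0.893 in WT chow. Fasn (-0.24, SE 0.08) and Acly (-0.22, SE 0.08) each had an adjusted p of 0.28.

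Averaged over both diets, Scd2 was lower in KO than in WT and was the only one of the 10 called (log2 fold change -0.34, SE 0.07, adjusted p = 0.034, edgeR), where 1.49% of all tested genes were (0.846% lower). All 10 genes had a negative averaged value, with a median of -0.17 against 0.00 for all genes. Some marker lists of other cells also ran lower in KO in this average. Of the Paneth cell markers, 5 of 7 were called lower (median -0.46). Negative values were found for 8 of 8 T cell markers (median -0.41, 0 called) and 9 of 9 stem and proliferation markers (median -0.17, 1 called). The same held for 7 of 7 B and plasma cell markers (median -0.18, 0 called) and 5 of 6 myeloid markers (median -0.29, 1 called lower). Of the enterocyte markers, 10 of 13 were negative (median -0.08, 1 called lower). On HFD alone 12 of 13 enterocyte markers were negative (1 called lower), and on chow 6 of 13 (0 called). Other lists ran higher: 10 of 10 smooth muscle markers (median 0.32, 0 called), 4 of 6 proximal markers (median 0.23) and 4 of 5 colon markers (median 0.12) were positive. The part of the Paneth, T cell, stem, B and plasma cell, myeloid, enterocyte and colon markers in the values of the 10 genes was not tested. The Scd2 call was lost without KO HFD 2, KO chow 2, KO chow 3 or any single WT chow library, with values of -0.34 to -0.30 and adjusted p between 0.069 and 0.11. Acly averaged -0.19 (SE 0.06, adjusted p = 0.087), Fasn -0.18 (SE 0.06, adjusted p = 0.12) and Scd1 -0.32 (SE 0.12, adjusted p = 0.16). DESeq2 called Acly, Fasn and Scd2, where it called 1001 genes in all (7.27% of those it gave an adjusted p). With the smooth muscle score as a covariate 6 of the 10 were called, all lower (Fads1, Acly, Fads2, Fasn, Scd2 and Me1), where the count over all genes became 2766, against 262 without it.

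The test of whether the diet effect differed between KO and WT called 0 of the 10 genes by edgeR and 0 by DESeq2, where edgeR called 0.00568% of all genes. At an unadjusted p under 0.05, as for 6.34% of all genes, there was 1, Me1, whose diet effect was 1.48 lower in KO on the log2 scale (interaction -1.48, SE 0.64, adjusted p = 0.78). The intervals were wide for Me1 (95% interval -2.94 to -0.03) and Scd1 (-0.84 to 0.17), and narrower for Acly (-0.18 to 0.30) and Fads2 (-0.27 to 0.16).

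Other lipogenesis enzymes were followed as a list of 24, of which 20 passed the filter. In KO, 4 were lower on HFD and 0 higher, with a median log2 fold change of -0.10. In WT, 4 were lower and 2 higher, with a median of -0.13. Over all tested genes, 4.76% were called lower and 3.44% higher in KO, and 6.57% lower and 6.8% higher in WT. Acss2, which makes acetyl-CoA from acetate, had 27.3, 26.6 and 29.6 CPM in KO HFD libraries, against 37.3, 30.8 and 36.7 CPM in KO chow libraries. It had 35.4, 32.1 and 33.7 CPM in WT HFD libraries, against 44.4, 44.3 and 46.2 CPM in WT chow libraries, with no overlap between diets in either genotype. Its log2 fold change was -0.33 in KO (adjusted p = 0.026) and -0.42 in WT (adjusted p = 0.0052), by edgeR. Slc25a1, the carrier that brings citrate out of mitochondria, changed by -0.36 in KO (adjusted p = 0.018) and -0.38 in WT (adjusted p = 0.0086). Elovl1, an elongase of very long chains, changed by -0.42 in KO (adjusted p = 0.03) and -0.46 in WT (adjusted p = 0.014). Mid1ip1, which activates acetyl-CoA carboxylase, changed by -0.44 in KO (adjusted p = 0.012) and -0.35 in WT (adjusted p = 0.025). Acacb, the carboxylase at the mitochondrial surface, was not called in KO (1.15, adjusted p = 0.063) and was higher in WT, at 14.5, 15.2 and 8.13 CPM on HFD, against 4.2, 3.91 and 4.62 CPM on chow (1.57, adjusted p = 0.012). Cyb5r3, which passes electrons toward the desaturases, was at 0.03 in KO (adjusted p = 0.88) and higher in WT (0.37, adjusted p = 0.019), and the difference between those effects was not called (-0.34, adjusted p = 0.73). In the genotype comparisons edgeR called 0 of the 20 on each diet, with 4 on HFD and 6 on chow at an unadjusted p under 0.05, and DESeq2 called 1 on each. Over all genes, 13.0% had such a p on each diet, and DESeq2 called 2.0% on HFD and 1.28% on chow. Averaged over diets edgeR called Acss2 alone (-0.32, adjusted p = 0.019), where it called 1.49% of all tested genes (0.846% lower).

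A list on NADPH supply held 9 genes of the pentose phosphate pathway, isocitrate dehydrogenases and other malic enzymes, not all of which make NADPH themselves. Idh2, the mitochondrial isocitrate dehydrogenase, was lower on HFD in KO (-0.35, adjusted p = 0.019) and in WT (-0.30, adjusted p = 0.026). Tkt, transketolase, was not called in KO (0.21, adjusted p = 0.093) and higher on HFD in WT (0.26, adjusted p = 0.034). The other 7 were not called in either genotype. Over all tested genes, 4.76% were called lower and 3.44% higher in KO, and 6.57% lower and 6.8% higher in WT. Pgls, of the pentose phosphate pathway, was lower in KO than in WT averaged over diets (-0.30, adjusted p = 0.026). In that average, 1.49% of all tested genes were called (0.846% lower). On each diet alone, edgeR called 0 of the 9 for genotype, with 4 on HFD and 5 on chow at an unadjusted p under 0.05, and DESeq2 called 1 on HFD and 2 on chow. Over all genes, 13.0% had such a p on each diet, and DESeq2 called 2.0% on HFD and 1.28% on chow.

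Of 17 listed regulators, 4 were lower and 0 higher on HFD in KO, and 5 were lower and 1 higher in WT. Over all tested genes, 4.76% were called lower and 3.44% higher in KO, and 6.57% lower and 6.8% higher in WT. Srebf1, which encodes SREBP-1, had 71.9, 62.7 and 71.3 CPM in KO HFD libraries, against 52.1, 65.8 and 61.1 CPM in KO chow libraries. It had 81.1, 79.0 and 80.9 CPM in WT HFD libraries, against 63.0, 55.9 and 64.2 CPM in WT chow libraries. Srebf1 was higher on HFD in WT, at 0.40 on the log2 scale (SE 0.09, adjusted p = 0.011, edgeR), where Acly and Fasn were lower, and in KO its value of 0.20 was not called (adjusted p = 0.17). Its WT call was lost without WT chow 2 (0.33, adjusted p = 0.063). The table sums the isoforms of Srebf1, so SREBP-1a and SREBP-1c were not separated here.

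Insig1, which holds the SREBP complex in the endoplasmic reticulum and is itself an SREBP target, had 88.2, 87.2 and 103 CPM in KO HFD libraries, against 175, 111 and 137 CPM in KO chow libraries. It had 110, 108 and 113 CPM in WT HFD libraries, against 190, 189 and 185 CPM in WT chow libraries. All HFD libraries were below all chow libraries of their genotype, at -0.60 in KO (SE 0.12, adjusted p = 0.011) and -0.77 in WT (SE 0.12, adjusted p = 0.002), by edgeR. Pparg, the adipogenic PPAR, was lower on HFD in both (-1.40 in KO, adjusted p = 8.3e-05, and -1.11 in WT, adjusted p = 0.00026). Lpin1 was lower in KO (-0.45, adjusted p = 0.043) and in WT (-0.54, adjusted p = 0.014). Mlx, the partner of ChREBP, was lower in KO (-0.38, adjusted p = 0.021) and at the threshold in WT (-0.28, adjusted p = 0.05 after rounding, called). Mlxipl, which encodes ChREBP, and Nr1h3, which encodes LXRα, were not called for diet: Mlxipl was at -0.03 in KO (SE 0.23) and 0.10 in WT (SE 0.23), and Nr1h3 at -0.17 in KO (SE 0.08) and 0.01 in WT (SE 0.08). Both change sign in WT with either marker score as a covariate.

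For genotype, edgeR called 0 of the 17 regulators on HFD, on chow or averaged over diets. DESeq2 called 0 on each diet and Insig1 in the average, where it called 7.27% of genes. At an unadjusted p under 0.05 in edgeR there were 2 on HFD, 1 on chow and 4 averaged. Over all genes, 13.0% had such a p on each diet and 19.5% in the average. Averaged over diets, Srebf1 was at -0.13 (adjusted p = 0.27), Insig1 at -0.33 (adjusted p = 0.067), Mlxipl at 0.42 (adjusted p = 0.21) and Nr1h3 at -0.06 (adjusted p = 0.62). On HFD these were -0.23, -0.25, 0.35 and -0.15, and on chow -0.03, -0.42, 0.48 and 0.03, in the same order of genes. Without KO chow 1, Mlxipl was called on chow (0.76, adjusted p = 0.0045) and in the average (0.55, adjusted p = 0.0026), where the counts over all genes became 517 on chow, against 22 with all libraries, and 1463 in the average, against 262. Without KO chow 2, Mlxipl was at 0.19 on chow (adjusted p = 0.85) and 0.27 in the average (adjusted p = 0.35). The interaction values were -0.19 for Srebf1, 0.16 for Insig1, -0.13 for Mlxipl and -0.18 for Nr1h3, with adjusted p between 0.87 and 0.98.

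**Figure D4:**
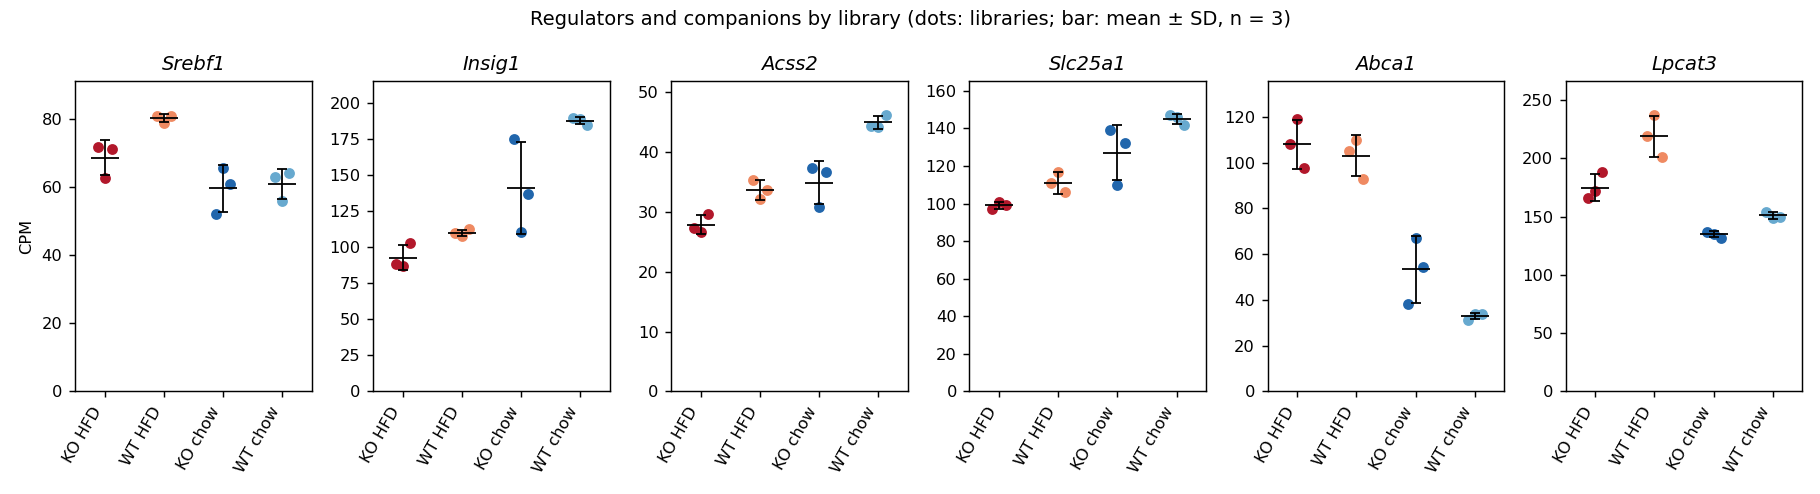
CPM of Srebf1, Insig1, Acss2, Slc25a1, Abca1 and Lpcat3 in every library (dots) with the mean ± SD (n = 3), axes starting at 0. Insig1, Acss2 and Slc25a1 are lower on HFD in each genotype, and Abca1 and Lpcat3 are higher, with Srebf1 in WT HFD at 79.0 to 81.1 CPM.

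A further 8 genes, known for their regulation by LXR or SREBP, were read beside them. In KO, 3 were higher and 2 lower on HFD, and in WT 4 were higher and 2 lower. Over all tested genes, 3.44% were called higher and 4.76% lower in KO, and 6.8% higher and 6.57% lower in WT. Abca1, a cholesterol exporter and LXR target, had 108, 119 and 97.7 CPM in KO HFD libraries, against 38.3, 67.2 and 54.4 CPM in KO chow libraries. It had 105, 110 and 92.9 CPM in WT HFD libraries, against 31.3, 33.9 and 33.8 CPM in WT chow libraries. No HFD library of Abca1 came within the chow range (1.02 in KO, adjusted p = 0.0037, and 1.64 in WT, adjusted p = 0.00023, by edgeR). Lpcat3, which puts polyunsaturated acids into phospholipids, was higher on HFD by 0.38 in KO (adjusted p = 0.0088) and 0.53 in WT (adjusted p = 0.00087). Mylip was not called in KO (0.49, adjusted p = 0.12) and higher in WT (0.96, adjusted p = 0.0064), and Abcg1 was higher in KO (0.46, adjusted p = 0.034) and in WT (0.49, adjusted p = 0.018). For genotype, edgeR called 0 of the 8 on each diet, with 2 on HFD and 5 on chow at an unadjusted p under 0.05 and 1 on each by DESeq2. Over all genes, 13.0% had such a p on each diet, and DESeq2 called 2.0% on HFD and 1.28% on chow. Averaged over diets, edgeR called Lpcat3 lower in KO (-0.24, adjusted p = 0.039), where it called 1.49% of all tested genes (0.846% lower).

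With the proximal score as a covariate, these companion calls for diet in WT were lost too, since no gene was called in that comparison. The companion calls named for diet held in 12 to 23 of 23 alternative fits, except Lpin1 in KO (8), Mlx in WT (9) and Abcg1 in KO (9). The averaged genotype calls held in 17 of 22 for Acss2, 14 for Pgls and 10 for Lpcat3. Adipocytes express the same enzymes. Of 12 adipocyte markers, 6 (Adipoq, Plin1, Cidea, Lep, Retn and Tshr) were under 1 CPM in every library, and the list summed to 84.4 to 113 CPM in KO HFD, 107 to 140 CPM in WT HFD, 67.6 to 79.7 CPM in KO chow and 61.6 to 75.2 CPM in WT chow. Of the 8 adipocyte markers tested, edgeR called 1 higher on HFD in KO and 2 in WT and 0 lower, while the median log2 fold change was -0.96 in KO and -0.65 in WT, so the sum and most markers ran in opposite directions. With the adipocyte score as a covariate, the calls of Acly, Fasn, Fads2 and Elovl5 for diet in WT and those of Acly and Fads2 in KO were kept. That score was -0.091, -0.134 and 0.202 in WT HFD and 0.145, 0.404 and -0.542 in WT chow. It was -0.24, -0.385 and 0.218 in KO HFD and 0.271, -0.074 and 0.226 in KO chow. Because it overlapped between diets and its markers ran both ways, the part of adipocytes was not tested by this fit. The Acly and Fads2 calls for diet also held in both genotypes when any 1 of the 12 libraries was left out. Colon markers summed to 4762 to 5553 CPM in KO HFD, 4282 to 5394 CPM in WT HFD, 6401 to 6866 CPM in KO chow and 5475 to 5967 CPM in WT chow, and T cell markers to 46.3 to 61.3 CPM in KO HFD, 52.7 to 86.3 CPM in WT HFD, 72.4 to 142 CPM in KO chow and 128 to 150 CPM in WT chow. Of the 5 colon markers tested, edgeR called 3 lower and 0 higher on HFD in each genotype. Their median log2 fold change was -1.15 in KO and -1.22 in WT. On HFD, edgeR also called 2 of 8 T cell markers lower in each genotype. In WT it called 4 of 7 Paneth cell markers and 3 of 6 endothelial markers higher and 1 Paneth marker lower. Of 13 enterocyte markers it called 4 higher and 0 lower in WT, and 3 higher and 1 lower in KO. Over all tested genes it called 6.8% higher and 6.57% lower in WT, and 3.44% higher and 4.76% lower in KO. The part of these enterocyte, colon, T cell, Paneth and endothelial markers in the diet differences was not tested.

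Across the 12 libraries, Acly and Fads2 followed each other most closely among the 10 genes (Pearson r = 0.962 on the log2 scale), and the deviations from the group means had r = 0.691. Fasn correlated with Fads2 (0.874, deviations 0.526) and with Acly (0.868, deviations 0.249). Elovl5 ran against Acly (-0.636, deviations -0.476) and Scd2 ran with Acaca (0.768, deviations 0.543). These are descriptions of 12 libraries that fall into 4 groups and share diet and genotype, with no test. Among 11605 genes searched, the pattern of Acly was most like those of Cenpx (0.986), Pafah1b3 (0.984) and Bdh1 (0.983), and that of Fads2 most like Pkp1 (0.974), Rps20 (0.973) and Ccne1 (0.971). The nearest genes to Fasn were Hist1h3i, Dpagt1 and Qtrt1 (0.945 to 0.954), to Elovl5 Mmd, Tcn2 and Plod1 (0.934 to 0.942) and to Fads1 M6pr, Ftsj1 and Mrpl1 (0.948 to 0.971). The nearest to Scd2 were Nelfb, Nadk and Saraf (0.878 to 0.913), to Scd1 Tbxas1, Cdh11 and Vav3 (0.863 to 0.871) and to Acaca Rhebl1, Papss2 and Nadk (0.853 to 0.91). The nearest to Elovl6 were Spn, Calr and Hsd17b12 (0.904 to 0.928), the last an enzyme of the same elongation cycle, and to Me1 Cox7a1, Mdh2 and Faf1 (0.889 to 0.916).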

How the data were processed

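RNA of mouse intestine was sequenced. Libraries were stranded and made from total RNA, per the labels' protocols. The authors deposited 1 table of expected counts per gene, estimates that need not be whole (12.3% to 13.2% of genes per library were not) and were not scaled between libraries. Per the submitters' processing notes, Trimmomatic, STAR, Picard and RSEM were run with mm10. Not given in the sources used here are the annotation release, versions and strand setting. Of 47643 rows, 47224 matched a symbol in GENCODE by ID without version, and 18495 had no count.

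Counts were rounded. One edgeR 4.0.16 fit (R 4.3.3, TMM factors, filterByExpr with a minimum count of 10, robust quasi-likelihood F test) held the 12 libraries as 4 group means, and p-values were adjusted by Benjamini-Hochberg over 17602 genes. SE was the log2 fold change divided by the square root of F. Likeness and marker scores used log2(CPM + 0.5). The script was tested on simulated data. The enzyme genes' expected counts ran between 219 and 34606. DESeq2 1.42.0, DESeq2's size factors, a filter of 50 counts in 3 libraries or none, leaving out libraries, marker scores as covariates and a replicate block were the alternatives, and the proximal score without Fabp1 and the adipocyte score were chosen after seeing the data. All 10 genes are named in every comparison; of each companion list, up to 3 called genes per direction and comparison with the smallest adjusted p, plus Srebf1, Mlxipl, Nr1h3 and Insig1. For likeness, the 3 genes with the highest r. Some genes that this rule names are not reported here. The genes and lists were chosen with earlier results of these data known. Figures were drawn with matplotlib 3.10.9.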

Additional observations from a re-analysis of the deposited data

How the results depend on the processing

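The 6 counts of called enzyme genes, 4 for diet in WT, 2 for diet in KO, 1 for genotype averaged over diets and 0 for genotype on HFD, on chow and for the interaction, were refitted under each alternative. DESeq2's size factors, the filter of 50 counts in 3 libraries and the adipocyte score moved none of them by more than 1.5 times. The replicate block gave 4, 2, 1, 0, 0 and 0 in that order. Deviations of same-numbered libraries from their group means had correlations of -0.111 to 0.143. The labels do not say whether equal numbers share a litter, batch or day. Without a filter, genotype on chow gave 1. DESeq2 gave 1 for genotype on chow and 3 for the average. The smooth muscle score gave 3 for genotype on HFD, 2 for diet in WT (Acly and the newly called Me1) and 6 for the average. The counts over all genes were then 1541, 922 and 2766, against 51, 2353 and 262 without that score. The proximal score gave 0 for diet in WT and 1 for diet in KO, and without Fabp1 in it 0 for diet in WT and 0 for the average. A fit of the compared groups alone gave 1 for diet in KO. Without WT chow 1 and KO chow 3 together, diet gave 1 in WT and 0 in KO, and the average gave 0. Leaving out 1 library each gave 0 to 1 for genotype on chow, 2 to 4 for diet in WT and 0 to 2 for the average. The cause of these shifts was not tested.

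No called value of the 10 genes changed sign, and 32 uncalled values of theirs did, where an alternative value that rounds to 0.00 was not counted as a change of sign, a rule set after seeing the values. Without a filter, Acaca for diet in KO was -0.01 on the log2 scale. With the smooth muscle score, the interaction was -0.21 for Acly, -0.07 for Fasn, 0.09 for Elovl5, 0.54 for Mlxipl and -0.04 for Insig1. Genotype on HFD was then 0.01 for Acaca and -0.12 for Elovl6, and diet was -0.04 for Elovl6 in KO, 0.39 for Mlxipl in KO, 0.11 for Fads1 in WT, -0.16 for Mlxipl in WT and -0.03 for Nr1h3 in WT. With the proximal score, diet in WT was 0.02 for Acaca, 0.19 for Elovl6, 0.22 for Fads1, -0.73 for Mlxipl, -0.17 for Nr1h3 and -0.06 for Cyb5r3, whose call was positive. Other values under it were -0.13 for Ppara for diet in KO, -0.03 for Elovl6 on HFD, -0.04 for Nr1h3 on chow, and interactions of -0.06 for Scd2, 0.44 for Mlxipl and -0.08 for Insig1. Without Fabp1 in the score, diet in WT was 0.10 for Elovl6, 0.14 for Fads1, -0.53 for Mlxipl and -0.11 for Nr1h3, diet in KO -0.06 for Ppara, genotype on chow 0.02 for Fads1 and -0.04 for Nr1h3, and the Mlxipl interaction 0.31. The replicate block gave 0.01 for Mlxipl for diet in KO.

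With 1 library left out, diet in KO ranged from -0.05 to 0.05 for Acaca, -0.06 to 0.22 for Elovl6, -0.56 to 0.07 for Me1, -0.15 to 0.31 for Ppara and -0.32 to 0.26 for Mlxipl. Diet in WT ranged from -0.08 to 0.07 for Scd2 and -0.04 to 0.06 for Nr1h3. Genotype on chow ranged from -0.13 to 0.02 for Elovl5, -0.26 to 0.38 for Me1, -0.36 to 0.02 for Fads1, -0.11 to 0.06 for Srebf1 and -0.01 to 0.10 for Nr1h3, and the average from -0.14 to 0.01 for Elovl6. The interaction ranged from -0.21 to 0.16 for Fads1, -0.10 to 0.02 for Fads2 and -0.42 to 0.16 for Mlxipl. Me1 had the widest SE of the 10 genes in every comparison, and Fads1 had the fewest counts, 219 in its lowest library.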
